A study of Arabidopsis thaliana with 9 samples.

Results

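The loci described here are the genes of the chloroplast genome of Arabidopsis, taken as every locus whose identifier starts with ATCG and whose value was above 0 in at least 1 library. The deposited values held 133 such loci among 33602 loci in all, and 124 of them were members by this rule, while the other 9 were listed at 0 in every library. The weakest member had a mean of 0.0289 FPKM (fragments per gene length and reads of the library, so that levels of different genes can be compared) over the 9 libraries, so the rule has no level below which a locus was left out other than 0. RNA-seq was performed on whole seedlings of 3 genotypes, the mutants *bbx11-1* and *pif4-2* and the wild type Col-0, all of the Col-0 ecotype, grown on medium with sucrose under constant red light (94 μmol/m2/s) and harvested at 4 d. Each genotype had 3 libraries from independent biological replicates. Each mutant is represented by 1 allele, of *BBX11*, a B-box transcription factor gene, or of *PIF4*, a phytochrome-interacting factor gene. The sample titles name the 3 Col-0 libraries as the wild type for the *bbx11-1* comparison, and do not say whether the *pif4-2* seedlings were grown and processed with them, so that genotype and a difference in preparation cannot be told apart for *pif4-2*.

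The chloroplast genome encodes subunits of the photosystems, of the cytochrome b6f complex, of the NADH dehydrogenase-like (NDH) complex and of the ATP synthase, together with part of the machinery that transcribes, splices and translates its genes. It is read by a bacterial-type RNA polymerase that is itself encoded in the chloroplast and needs nuclear-encoded sigma factors, and by nuclear-encoded phage-type RNA polymerases. Many of its genes are transcribed in clusters and cut apart afterwards. Most chloroplast mRNAs lack a stable poly(A) tail, and short A-rich tails there mark RNA for decay. The libraries were made from RNA captured with oligo(dT) beads, so the levels below are of chloroplast RNA that was carried through this selection, and they do not measure the abundance of chloroplast transcripts in total RNA. In whole seedlings, fewer chloroplasts and less chloroplast RNA per chloroplast also cannot be told apart.

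Names or descriptions could be given to 41 of the 124 loci, and the other 83 are given by identifier. Whether each of these 83 encodes a protein, a tRNA or an rRNA was not given in the reference used. Of the 41, 36 were named in the study's own lists of genes that changed in these same libraries, so that counts within the functional groups below are descriptions and are not independent evidence of a direction. In the TAIR10.1 annotation, 28 of the named loci could be matched to a coding sequence by name, and their identifiers follow the order of the genes along the chloroplast genome. Runs of adenine in the RNA are one place where oligo(dT) can anneal, and they are shown here because the RNA was selected in this way. Among the 28 coding sequences, which share 1 genome and the same libraries, the longest run of A in the sense strand was 2 to 13 bases (median 6). The longest runs were those of *accD* (13 bases) and *atpB* (10 bases). The stretches that hold them were read from the RefSeq sequence of TAIR10.1, from bases 57352 to 57404 of the chloroplast genome on the plus strand for *accD* and from bases 54081 to 54130 on the minus strand for *atpB*. With the run in capitals, they are
accD: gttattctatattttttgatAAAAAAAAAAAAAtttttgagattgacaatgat
atpB: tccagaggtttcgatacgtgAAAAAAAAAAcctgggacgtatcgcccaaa
Across the 28 loci, the length of the longest run had a Spearman correlation of -0.11 with the mean level in FPKM, coding length one of -0.08 and GC content (28.9% to 45.1%) one of 0.58. The 2 loci with the longest runs stood far apart in level. *atpB* had the highest level of the 28, at 1149 to 1884 FPKM as means of the genotypes, whereas *accD* was at 2.103 to 4.63 FPKM. Stretches of 50 bases were also taken from the first to the last coding base of each locus, introns included. In 24 of the 28 loci no such stretch occurred a second time in the genome, and the highest share was 7.70%, in *psbA*.

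In the check of the mutated genes, *BBX11* was at 7.66 to 10.7 FPKM in *bbx11-1*, 15.7 to 17.0 FPKM in *pif4-2* and 15.7 to 78.2 FPKM in Col-0, where the highest value was that of replicate 3, and *PIF4* was at 16.3 to 17.5 FPKM in *pif4-2* against 25.7 to 35.2 FPKM in Col-0. The depth estimated from the spacing of the lowest values was 17.4 to 19.6 M reads per library in *bbx11-1*, 18.7 to 22.2 M in *pif4-2* and 16.2 to 17.8 M in Col-0. At the estimated depths, 70.5% to 77.0% of the values used lay within 0.1 of a whole read number. By this estimate every *pif4-2* library was deeper than every Col-0 library, and the part of depth in the differences below was not tested. Markers of green tissue (5 genes, among them *RBCS1A* and *LHCB1.1*) summed to 30795 to 36468 FPKM in every library, markers of the epidermis (2 genes) to 131 to 146 FPKM, of the root (3 genes) to 6.09 to 11.7 FPKM, and of seed storage (3 genes) to 17.1 to 42.3 FPKM, and none of these 13 genes passed the test in any comparison. Replicate 1 of *bbx11-1* and replicate 1 of Col-0 stood apart from the other libraries of their genotypes in the chloroplast loci, as given next.

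The summed FPKM of the chloroplast loci was 44867, 28857 and 27651 in the *bbx11-1* libraries of replicates 1, 2 and 3. It was 38625, 40727 and 47513 in the *pif4-2* libraries, and 36003, 27790 and 24608 in the Col-0 libraries. All *pif4-2* libraries were therefore above all Col-0 libraries, whereas the *bbx11-1* libraries overlapped both, with replicate 1 far above the other *bbx11-1* libraries. The mean total was 1.15 times that of Col-0 in *bbx11-1* and 1.44 times that of Col-0 in *pif4-2*. Without replicate 1 of *bbx11-1* the first of these ratios was 0.959, and without replicate 1 of both *bbx11-1* and Col-0 it was 1.08. Within each replicate number the *bbx11-1* library was above the Col-0 library, by 1.25, 1.04 and 1.12 times. The chloroplast total made up 3.75% to 5.83% of the FPKM sum in *bbx11-1*, 5.10% to 6.20% in *pif4-2* and 3.36% to 4.70% in Col-0. No test was made on these totals.

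**Figure D1:**
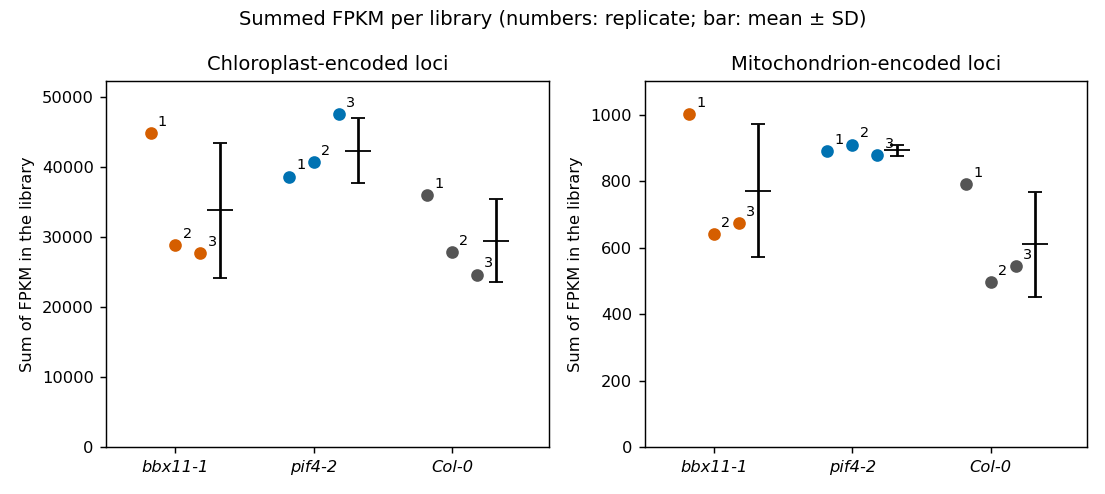
Summed FPKM (y axes, from 0) of the chloroplast-encoded loci (left) and of the mitochondrion-encoded loci (right) in each library of bbx11-1, pif4-2 and Col-0; points are libraries, numbered by replicate, and bars give mean ± SD (n = 3). In both panels the pif4-2 libraries lie above the Col-0 libraries, and replicate 1 is the highest library of bbx11-1 and of Col-0.

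Other RNA that mostly lacks long poly(A) tails was summed in the same libraries. The mitochondrion-encoded loci summed to 1002, 640 and 674 FPKM in *bbx11-1*, 892, 911 and 878 FPKM in *pif4-2* and 791, 497 and 545 FPKM in Col-0. The ratio of the chloroplast total to the mitochondrial total was 44.8, 45.1 and 41.0 in *bbx11-1*, 43.3, 44.7 and 54.1 in *pif4-2* and 45.5, 55.9 and 45.2 in Col-0, so that the 3 genotypes overlapped in this ratio. Nuclear loci annotated as rRNA summed to 2017 to 2254 FPKM in *bbx11-1*, 2155 to 2459 FPKM in *pif4-2* and 1410 to 1859 FPKM in Col-0. Nuclear snoRNA loci summed to 529, 362 and 392 FPKM in *bbx11-1*, 392, 378 and 359 FPKM in *pif4-2* and 583, 407 and 440 FPKM in Col-0. Every *pif4-2* library was thus below every Col-0 library in this sum, and *bbx11-1* overlapped both. Within *bbx11-1* and within Col-0, replicate 1 was the highest, as in the chloroplast total. The part of these differences in the results for the chloroplast loci was not tested.

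The chloroplast RNA in these libraries was dominated by a few loci. Of the 124 members, 7 had a mean over the 9 libraries of at least 1000 FPKM, 32 were at 100 to 1000 FPKM, 54 at 10 to 100 FPKM, 22 at 1 to 10 FPKM and 9 below 1 FPKM, with a median of 32.3 FPKM. ATCG00220 was at 9904, 7492 and 5224 FPKM in *bbx11-1*, 9687, 11022 and 13685 FPKM in *pif4-2* and 8768, 7598 and 5772 FPKM in Col-0. The *pif4-2* libraries were all above the Col-0 libraries, but the difference did not pass the test (log2 difference 0.64, SE 0.23, limma, adjusted p = 0.181). ATCG01020 followed, at 8019, 5099 and 4481 FPKM in *bbx11-1*, 6874, 7392 and 8595 FPKM in *pif4-2* and 6175, 5310 and 4237 FPKM in Col-0. These loci together held 35.1% to 43.6% of the chloroplast total in *bbx11-1*, 42.9% to 46.9% in *pif4-2* and 40.7% to 46.4% in Col-0, and the 10 most abundant loci held 73.1% to 78.8% over the 9 libraries.

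**Figure D2:**
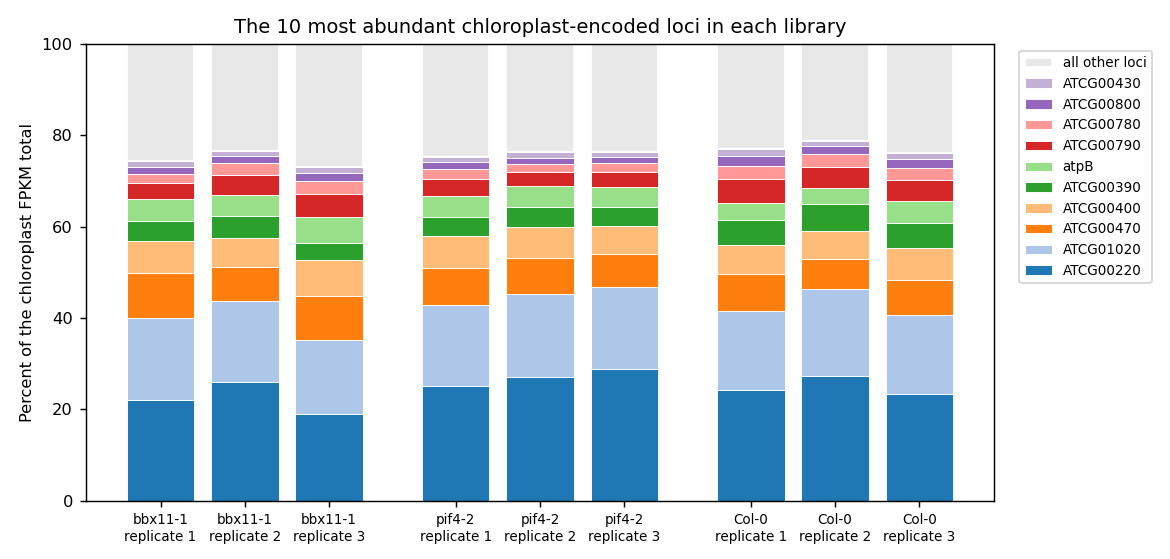
Share of the chloroplast FPKM total (y axis, percent) taken by each of the 10 most abundant loci, stacked, and by all other loci (grey), in every library of bbx11-1, pif4-2 and Col-0. ATCG00220 and ATCG01020 held 35.1% to 46.9% of the total, and ATCG00220 held the largest share in each of the 9 libraries.

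The next loci in level were ATCG00470, ATCG00400, ATCG00390, *atpB*, ATCG00790, ATCG00780, ATCG00800 and ATCG00430, which is described as photosystem II reaction center protein G. ATCG00470 was at 4496, 2168 and 2684 FPKM in *bbx11-1*, 3141, 3252 and 3411 FPKM in *pif4-2* and 2915, 1777 and 1888 FPKM in Col-0. ATCG00400 was at 3071, 1819.96 and 2192 FPKM in *bbx11-1*, 2649.9, 2759 and 2850.2 FPKM in *pif4-2* and 2289.8, 1701 and 1717 FPKM in Col-0. In both, every *pif4-2* library was above every Col-0 library and the test was not passed (log2 differences 0.61 and 0.55, limma, adjusted p = 0.232 and 0.126). Not all abundant loci had this order. ATCG00790 was at 1582, 1259 and 1371 FPKM in *bbx11-1*, 1434, 1283 and 1576 FPKM in *pif4-2* and 1915, 1329 and 1149 FPKM in Col-0, with the 3 genotypes overlapping. For ATCG00390, ATCG00780, ATCG00800 and ATCG00430 the libraries of *pif4-2* and Col-0 overlapped as well, and their log2 differences of *pif4-2* from Col-0 were 0.15, 0.04, 0.04 and 0.39, none past the test (limma, adjusted p = 0.426 to 0.962).

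Of the 124 members, 117 reached a mean of 1 FPKM in 1 genotype or more and were tested on the scale log2(FPKM + 0.5), in a fit of all 19169 genes that met this filter. This scale understates the change of weakly expressed loci. A locus was counted as changed where the adjusted p was below 0.05 and the levels differed by 2-fold or more. In *pif4-2*, 13 of the 117 loci rose against Col-0, where 0.783% of all tested genes did so, and 0 fell, where 0.350% of all tested genes did so (limma). By the adjusted p alone, 41 were higher, against 2.88% of all tested genes, and 0 lower, against 1.95%. At an unadjusted p below 0.05, 82 of the 117 differed in either direction, against 16.6% of all tested genes. In 79 loci every *pif4-2* library was above every Col-0 library, against 10.2% of all tested genes, and in 1 locus, ATCG00900, every one was below, against 12.1%. The median log2 difference of the 117 loci was 0.66, or 1.58-fold, with 109 above 0, where the median over all tested genes was -0.02.

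The count depended on single libraries and on the scaling. It was 24 without replicate 1 of Col-0, 8 without replicate 2 of Col-0 and 4 without replicate 3 of *pif4-2*, and 31 without replicate 1 of both Col-0 and *bbx11-1*. When the chloroplast loci of each library were divided by its mitochondrial total, 1 locus was counted as changed in *pif4-2*, ATCG00240. The direct spread of the libraries is shown by the medians over the 117 loci of log2(FPKM + 0.5) minus the mean of Col-0. They were 0.80, 0.07 and 0.15 in the *bbx11-1* libraries, 0.58, 0.63 and 0.76 in the *pif4-2* libraries and 0.30, -0.13 and -0.18 in the Col-0 libraries, while the medians over all tested genes lay between -0.05 and 0.04. Replicate 1 of *bbx11-1* was thus higher than any *pif4-2* library by this measure, and the other *bbx11-1* libraries were below every *pif4-2* library.

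**Figure D3:**
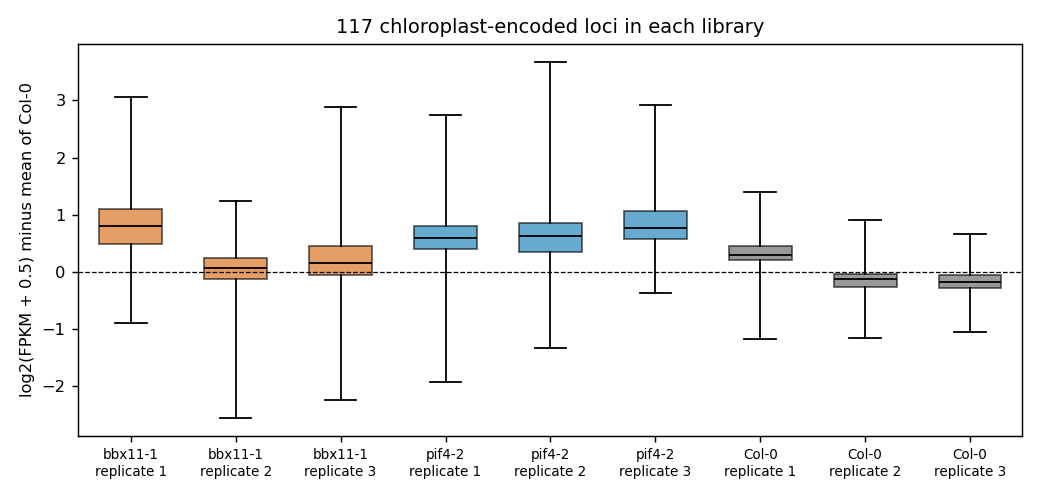
Difference of each of the 117 tested chloroplast loci from its Col-0 mean, in log2(FPKM + 0.5) (y axis), in each library of bbx11-1, pif4-2 and Col-0; boxes span the quartiles, the line is the median and whiskers reach the lowest and highest locus. The medians of the pif4-2 libraries were 0.58 to 0.76, those of bbx11-1 0.07 to 0.80 and those of Col-0 -0.18 to 0.30.

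The counts by group below are to be read beside those of wider sets in *pif4-2* against Col-0. By the adjusted p alone, 2.88% of all tested genes and 41 of the 117 chloroplast loci were higher. Of the 76 tested loci without a name or description, 15 were. Past both thresholds, 0.783% of all tested genes rose, with 13 and 5 loci in these sets. Photosystem II, which splits water and passes electrons to plastoquinone, had 9 named loci, of which 8 were higher in *pif4-2* than in Col-0 by the adjusted p alone and 3 rose by at least 2-fold. The 3 were *psbA*, which encodes the D1 reaction center protein, *psbF*, which encodes the beta subunit of the reaction center's cytochrome b559, and *psbL*, which encodes another small subunit of the reaction center. ATCG00430, described as photosystem II reaction center protein G, was not placed in this group and did not pass the test (log2 difference of *pif4-2* 0.39, limma, adjusted p = 0.426). *psbA* was at 135, 108 and 121 FPKM in *bbx11-1*, 168, 154 and 168 FPKM in *pif4-2* and 105, 75.7 and 65.9 FPKM in Col-0, so that the 3 genotypes did not overlap. The log2 difference of *pif4-2* from Col-0 was 1.01 for *psbA* (SE 0.15, limma, adjusted p = 0.00271), close to the 2-fold threshold. In 6 of 20 alternative fits *psbA* was no longer counted.

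*psbF* and *psbL* lie next to each other on the minus strand of the chloroplast genome, at bases 63942 to 64061 and 63804 to 63920 of the TAIR10.1 sequence, between *psbE* and *psbJ*, with which they form the *psbE* cluster. Their whole coding sequences are shown because they are the neighbours that both passed the thresholds. In the RefSeq sequence, with the first codon in capitals, they are
psbF: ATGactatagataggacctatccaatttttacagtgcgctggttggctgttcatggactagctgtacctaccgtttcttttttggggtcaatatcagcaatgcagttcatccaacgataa
psbL: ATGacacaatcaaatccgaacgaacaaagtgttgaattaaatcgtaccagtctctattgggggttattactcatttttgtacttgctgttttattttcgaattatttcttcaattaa
The longest run of A is 2 bases in *psbF* and 3 bases in *psbL*. *psbL* was at 67.9, 52.0 and 76.7 FPKM in *bbx11-1*, 80.8, 75.6 and 113 FPKM in *pif4-2* and 39.8, 33.2 and 36.9 FPKM in Col-0. Every library of either mutant was above every Col-0 library, and the log2 difference of *pif4-2* from Col-0 was 1.27 (SE 0.16, limma, adjusted p = 0.00139). *psbF* was at 63.1, 39.2 and 51.8 FPKM in *bbx11-1*, 65.5, 52.6 and 74.9 FPKM in *pif4-2* and 33.4, 26.2 and 26.6 FPKM in Col-0, with the same separation from Col-0 and a log2 difference of 1.14 in *pif4-2* (SE 0.17, limma, adjusted p = 0.00344). Among the alternatives, *psbF* and *psbL* were each lost in 1 of 20, the scaling by the mitochondrial total.

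The other genes of this cluster were past the adjusted p and below 2-fold. *psbE* was at 90.2, 52.0 and 64.1 FPKM in *bbx11-1*, 76.7, 78.3 and 83.5 FPKM in *pif4-2* and 54.0, 45.7 and 38.5 FPKM in Col-0 (log2 difference of *pif4-2* 0.79, limma, adjusted p = 0.024). *psbJ* was at 205, 113 and 114 FPKM in *bbx11-1*, 161, 179 and 206 FPKM in *pif4-2* and 115, 90.7 and 91.5 FPKM in Col-0 (log2 difference of *pif4-2* 0.87, limma, adjusted p = 0.0325). All 4 genes of the cluster were thus past the adjusted p in *pif4-2*. In a second cluster on the plus strand, *psbB*, which encodes the inner antenna protein CP47, *psbT* and *psbH* are followed by *petB* and *petD*, which encode the cytochrome b6 and subunit IV of the cytochrome b6f complex. In *pif4-2* against Col-0 their log2 differences were 0.67 for *psbB*, 1.00 for *psbT*, 0.67 for *psbH*, 0.89 for *petB* and 0.86 for *petD*, past the adjusted p for all but *psbH* (limma, adjusted p = 6.26e-04 for *petB* to 0.0865 for *psbH*). *psbC*, which encodes the inner antenna protein CP43, was at 198, 126 and 144 FPKM in *bbx11-1*, 197, 224 and 236 FPKM in *pif4-2* and 133, 105 and 102 FPKM in Col-0 (log2 difference of *pif4-2* 0.96, limma, adjusted p = 0.00496).

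The cytochrome b6f complex, which carries electrons between the photosystems, had 5 named loci, 3 of them higher in *pif4-2* by the adjusted p alone and 0 past both thresholds. *petB* was at 29.8, 23.9 and 26.6 FPKM in *bbx11-1*, 33.6, 30.8 and 37.7 FPKM in *pif4-2* and 19.4, 17.6 and 17.5 FPKM in Col-0. No genotype overlapped another in this gene. *petA*, which encodes cytochrome f, was at 29.4, 23.6 and 21.7 FPKM in *bbx11-1*, 30.8, 32.8 and 35.1 FPKM in *pif4-2* and 25.5, 18.4 and 16.9 FPKM in Col-0, and *pif4-2* was above Col-0 in every library (log2 difference 0.71, limma, adjusted p = 0.0196). By name or description, 1 locus was placed in photosystem I. Others could be among the loci whose description names no complex or that have none. The locus placed there, ATCG00350, described as a PsaA/PsaB protein, was at 39.7, 35.1 and 39.3 FPKM in *bbx11-1*, 44.7, 47.8 and 51.0 FPKM in *pif4-2* and 33.9, 27.4 and 27.4 FPKM in Col-0. The 3 genotypes did not overlap in it (log2 difference of *pif4-2* from Col-0 0.69, limma, adjusted p = 0.00244). Of 5 loci of the NDH complex, which returns electrons to the plastoquinone pool, 3 were higher in *pif4-2* by the adjusted p alone, and *ndhE* had the largest difference among them. *ndhE* was at 27.2, 20.6 and 21.2 FPKM in *bbx11-1*, 24.7, 27.8 and 29.8 FPKM in *pif4-2* and 13.7, 12.5 and 15.2 FPKM in Col-0, so that all mutant libraries were above all Col-0 libraries. ATCG01060 is described as an iron-sulfur cluster-binding electron carrier, with no complex stated, and was placed in none of these groups. It rose in *pif4-2* by a log2 difference of 1.09 (SE 0.15, limma, adjusted p = 0.00244), to 32.6, 25.9 and 37.5 FPKM, against 12.9, 14.3 and 16.9 FPKM in Col-0, with 26.7, 21.0 and 19.2 FPKM in *bbx11-1*.

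All 4 named loci of the ATP synthase, which makes ATP from the proton gradient across the thylakoid membrane, were higher in *pif4-2* than in Col-0 by the adjusted p alone. *atpF*, which encodes a stalk subunit, rose past both thresholds. It was at 68.2, 40.9 and 47.1 FPKM in *bbx11-1*, 65.8, 57.7 and 73.1 FPKM in *pif4-2* and 38.1, 26.8 and 28.2 FPKM in Col-0 (log2 difference of *pif4-2* 1.08, SE 0.18, limma, adjusted p = 0.00596), and every mutant library was above every Col-0 library. Its neighbours in the cluster on the minus strand, *atpH*, which encodes the ring subunit c, and *atpA*, which encodes the catalytic-head subunit alpha, had log2 differences of 0.94 and 0.98 in *pif4-2* (limma, adjusted p = 0.0104 and 0.0102). *atpB*, which encodes the subunit beta and lies elsewhere, was at 2230.2, 1276 and 1583 FPKM in *bbx11-1*, 1781, 1875 and 1996 FPKM in *pif4-2* and 1336, 939.7 and 1169.9 FPKM in Col-0. Its log2 difference of 0.73 in *pif4-2* was just past the adjusted p (limma, adjusted p = 0.0483). *atpB* was far above *atpA* in level in every library, although the subunits alpha and beta occur in equal number in the enzyme.

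The chloroplast also encodes part of its own gene expression machinery. Both loci described as subunits of the chloroplast RNA polymerase were higher in *pif4-2* by the adjusted p alone. ATCG00170 was at 5.45, 3.32 and 3.84 FPKM in *bbx11-1*, 4.77, 4.42 and 5.37 FPKM in *pif4-2* and 3.49, 2.46 and 2.41 FPKM in Col-0 (log2 difference of *pif4-2* 0.72, limma, adjusted p = 0.0453). ATCG00180 was at 6.32, 5.31 and 4.81 FPKM in *bbx11-1*, 5.54, 6.08 and 5.46 FPKM in *pif4-2* and 3.54, 3.71 and 4.03 FPKM in Col-0 (log2 difference of *pif4-2* 0.54, limma, adjusted p = 0.0211). The *pif4-2* libraries were above all Col-0 libraries in both loci. Of 3 loci of the small ribosomal subunit, *rps16* rose in *pif4-2*, to 18.2, 20.3 and 19.7 FPKM, against 9.57, 8.47 and 7.47 FPKM in Col-0, with 22.7, 8.31 and 12.5 FPKM in *bbx11-1* (log2 difference of *pif4-2* 1.15, SE 0.26, limma, adjusted p = 0.0292). Here the *bbx11-1* libraries spanned both of the other genotypes. *rps14* was at 357, 367 and 396 FPKM in *pif4-2* against 347, 189 and 167 FPKM in Col-0, which did not pass the test (limma, adjusted p = 0.211).

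For the large ribosomal subunit, *rpl20* was past the adjusted p in *pif4-2* (log2 difference 0.85, limma, adjusted p = 0.029). *rpl2*, which the annotation gives in more than 1 copy, so that reads could have been split or lost, varied widely between replicates. It was at 219, 12.2 and 15.3 FPKM in *bbx11-1*, 19.0, 69.5 and 185 FPKM in *pif4-2* and 87.5, 51.2 and 89.5 FPKM in Col-0, with no separation of the genotypes. *matK*, which encodes a maturase for intron splicing, was at 40.4, 21.4 and 18.6 FPKM in *bbx11-1*, 34.2, 29.5 and 37.5 FPKM in *pif4-2* and 22.8, 15.6 and 15.8 FPKM in Col-0. The *pif4-2* libraries of *matK* were above all Col-0 libraries, by a log2 difference of 0.90 that did not pass the test (limma, adjusted p = 0.0682).

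Of the 10 named or described loci placed in none of these groups, ATCG00430 included, 3 rose in *pif4-2*, ATCG01060 among them. *accD*, which encodes a subunit of the acetyl-CoA carboxylase for fatty acid synthesis, was at 6.36, 2.30 and 2.27 FPKM in *bbx11-1*, 4.53, 4.68 and 4.69 FPKM in *pif4-2* and 2.53, 2.02 and 1.76 FPKM in Col-0 (log2 difference of *pif4-2* 0.99, limma, adjusted p = 0.0893). *clpP*, which encodes the proteolytic subunit of the Clp protease, was at 207, 110 and 85.7 FPKM in *bbx11-1*, 181, 202 and 215 FPKM in *pif4-2* and 147, 110 and 104 FPKM in Col-0 (log2 difference of *pif4-2* 0.74, limma, adjusted p = 0.157). In both, the *pif4-2* libraries lay above all Col-0 libraries and the test was not passed. The name *ycf1*, of a gene whose protein has been linked to protein import, is carried here by ATCG01000. This locus is not among the 28 matched to a coding sequence. Its values are therefore of this locus alone, and loci given by identifier could hold other parts of the gene. ATCG01000 was at 5.99, 2.43 and 8.30 FPKM in *bbx11-1*, 4.07, 8.0 and 4.4 FPKM in *pif4-2* and 2.17, 2.51 and 1.63 FPKM in Col-0 (log2 difference of *pif4-2* 1.16, limma, adjusted p = 0.107). Again the *pif4-2* libraries were all above Col-0, while *bbx11-1* overlapped both. ATCG00520, described by the term unfolded protein binding, rose in *pif4-2* by a log2 difference of 1.16 (SE 0.22, limma, adjusted p = 0.011), and ATCG00360, described as a tetratricopeptide repeat-like protein, by 1.03 (SE 0.26, limma, adjusted p = 0.0483). ATCG00360 was no longer counted in 11 of 20 alternative fits. For *rps16* this was so in 8, for *atpF* in 3, and for ATCG00520 and ATCG01060 in 2 each.

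Among the loci without a name, 5 rose in *pif4-2*. Their lengths, and whether they encode proteins, tRNAs or rRNAs, were not known here. ATCG00240 had the largest difference of all chloroplast loci. It was at 88.2, 23.1 and 78.0 FPKM in *bbx11-1*, 71.5, 136 and 80.8 FPKM in *pif4-2* and 12.6, 6.60 and 12.7 FPKM in Col-0. All 6 mutant libraries were above all Col-0 libraries, and *bbx11-1* and *pif4-2* overlapped each other. The log2 difference of *pif4-2* from Col-0 was 3.12 (95% confidence interval 2.02 to 4.21, SE 0.45, limma, adjusted p = 0.00257), and ATCG00240 was past both thresholds in all 20 alternative fits, with log2 differences of 2.55 to 3.30 and adjusted p of 3.1e-04 to 0.0181. In *bbx11-1* its log2 difference was 2.36 (SE 0.45), which did not pass the test (limma, adjusted p = 0.0543). When replicates of the same number were blocked it did (limma, adjusted p = 0.0354), and over the 20 alternatives the adjusted p was 0.00492 to 0.218.

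ATCG00320 was at 38.2, 10.4 and 41.2 FPKM in *bbx11-1*, 36.6, 41.0 and 34.0 FPKM in *pif4-2* and 12.7, 10.8 and 13.6 FPKM in Col-0. Replicate 2 of *bbx11-1* was at the level of Col-0 and the other mutant libraries were above it (log2 difference of *pif4-2* 1.55, SE 0.39, limma, adjusted p = 0.0471). ATCG00110 was at 25.2, 17.1 and 15.97 FPKM in *bbx11-1*, 32.5, 29.7 and 36.2 FPKM in *pif4-2* and 18.0, 12.8 and 9.34 FPKM in Col-0, with *pif4-2* above both other genotypes in every library (log2 difference from Col-0 1.30, SE 0.21, limma, adjusted p = 0.00518). ATCG00410 was at 19.7, 14.7 and 9.45 FPKM in *bbx11-1*, 26.2, 19.8 and 26.5 FPKM in *pif4-2* and 5.65, 15.2 and 10.7 FPKM in Col-0 (log2 difference of *pif4-2* 1.25, SE 0.32, limma, adjusted p = 0.0477), and *bbx11-1* overlapped Col-0 in it but not *pif4-2*. The fifth was ATCG00610, with a log2 difference of 1.08 in *pif4-2* (SE 0.27, limma, adjusted p = 0.0416). Of these, ATCG00320 was lost in 10 of 20 alternatives, ATCG00410 in 13 and ATCG00610 in 10, and ATCG00110 only in the scaling by the mitochondrial total.

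**Figure D4:**
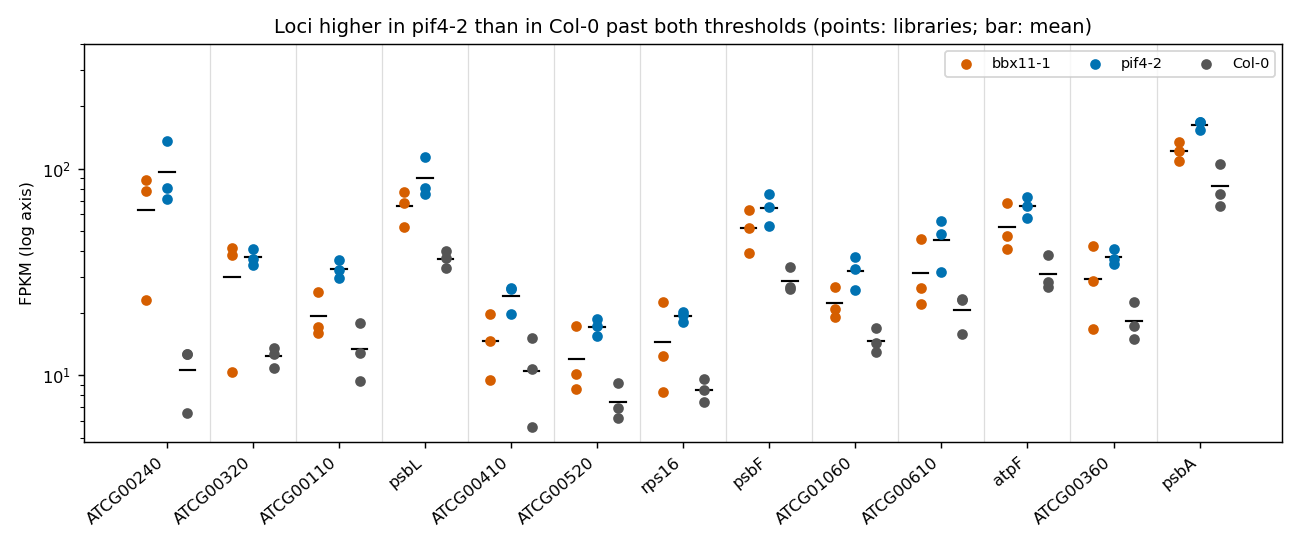
FPKM (y axis, log scale) of the 13 loci that rose in pif4-2 against Col-0, in each library (points) of bbx11-1, pif4-2 and Col-0, with the mean as a bar; loci are ordered by their difference, the largest at the left. The pif4-2 points lie above the Col-0 points in every locus, and the bbx11-1 mean lies between the other means in each of the 13. The loci were chosen from these libraries for the gap between pif4-2 and Col-0, so neither order is independent evidence.

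Only 8 of the 117 tested loci had a difference below 0 in *pif4-2*. The lowest was ATCG00900, at 10.03, 7.76 and 6.88 FPKM in *bbx11-1*, 7.83, 6.69 and 7.49 FPKM in *pif4-2* and 12.2, 8.95 and 8.14 FPKM in Col-0. The *pif4-2* libraries were below all Col-0 libraries in this locus, and the difference did not pass the test (log2 difference -0.37, limma, adjusted p = 0.27). ATCG01130 was at 166, 129 and 118 FPKM in *bbx11-1*, 130, 110 and 148 FPKM in *pif4-2* and 197, 146 and 118 FPKM in Col-0, with overlap of all 3 genotypes (log2 difference of *pif4-2* -0.23, limma, adjusted p = 0.611).

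In the comparison of *bbx11-1* with Col-0, 0 of the 117 loci were past both thresholds (limma), where 0.0887% of all tested genes were higher and 0.0574% lower. By the unadjusted p, at 0.05, 43 loci differed, against 10.7% of all tested genes. By the adjusted p alone, 2 loci were higher, against 0.271% of all tested genes. These were *petB* (log2 difference 0.55, SE 0.10, limma, adjusted p = 0.0482) and *ndhE* (log2 difference 0.71, SE 0.12, limma, adjusted p = 0.0319), with the values of every library given above. In 19 loci every *bbx11-1* library was above every Col-0 library, against 6.78% of all tested genes, and in 0 below, against 5.81%. The median log2 difference over the 117 loci was 0.36, with 99 above 0. Same-numbered libraries of *bbx11-1* and Col-0 deviated together, and when they were blocked 1 locus was past both thresholds, ATCG00240. Without replicate 2 of *bbx11-1* the count was 4. The comparisons of both mutants share the 3 Col-0 libraries, so their differences are not independent of each other.

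In the direct comparison of *bbx11-1* with *pif4-2*, 0 of the 117 loci were past both thresholds (limma), where 0.412% of all tested genes were higher and 0.224% lower in *bbx11-1*. By the unadjusted p, at 0.05, 30 loci differed, against 14.9% of all tested genes. Every *bbx11-1* library was below every *pif4-2* library in 15 loci, against 9.80% of all tested genes. The median log2 difference of *bbx11-1* from *pif4-2* was -0.30, with 112 of the 117 below 0. By the adjusted p alone 1 locus, ATCG00700, was lower in *bbx11-1* (limma, adjusted p = 0.0347), against 0.902% of all tested genes, and 0 were higher, against 1.42%. A smaller difference of *bbx11-1* than of *pif4-2* from Col-0 was therefore not shown for single loci, other than by the adjusted p alone for ATCG00700. The spread within *bbx11-1* was wide. The median SD over the 117 loci on the log2 scale was 0.46 in *bbx11-1*, 0.16 in *pif4-2* and 0.30 in Col-0, against 0.14, 0.09 and 0.15 over all tested genes.

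To separate the total from the composition, each chloroplast locus was also expressed as a share of the chloroplast total of its library and then fitted with all other genes. The spread within the genotypes was narrower on this scale, with a median SD over the loci of 0.22 in *bbx11-1*, 0.12 in *pif4-2* and 0.18 in Col-0. The filter left 115 chloroplast loci, among 19167 genes tested. In *pif4-2* against Col-0, 1 of the 115 loci rose past both thresholds, against 0.720% of all tested genes, and 0 fell, against 0.350% (limma). At an unadjusted p below 0.05, 47 differed, against 16.5% of all tested genes. In 34 of the 115 every *pif4-2* library had a higher share than every Col-0 library, against 1917 of the 19167 tested genes, and in 12 a lower one, against 12.2% of all tested genes. By the adjusted p alone, 10 were higher, against 2.71%, and 5 lower, against 1.97% of all tested genes. The balance of higher to lower loci thus moved to 10 against 5, where it was 41 against 0 with the values as given. Division by the total makes rises and falls in share offset each other by construction. A less one-sided balance is therefore not in itself a result about the loci.

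The locus past both thresholds was ATCG00240. It made up 0.197%, 0.0802% and 0.282% of the chloroplast total in *bbx11-1*, 0.185%, 0.334% and 0.170% in *pif4-2* and 0.0351%, 0.0237% and 0.0515% in Col-0. As with the values as given, every mutant library was above every Col-0 library, with a log2 difference of 2.60 in *pif4-2* (SE 0.42, limma, adjusted p = 0.00454) and of 2.19 in *bbx11-1* (SE 0.42, limma, adjusted p = 0.0532, and 0.0365 when replicates of the same number were blocked). The adjusted p over the 19 alternatives was 9.32e-04 to 0.0282 in *pif4-2* and 0.0127 to 0.192 in *bbx11-1*.

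The other loci with a higher share in *pif4-2* by the adjusted p alone were ATCG00110, ATCG00520, *psbF*, *atpF*, *atpA*, ATCG00290, *psbC*, *psbJ* and *petD*, with log2 differences of 0.79 for ATCG00110 (limma, adjusted p = 0.00129) down to 0.34 for *petD* (limma, adjusted p = 0.0492). *atpF* made up 0.152%, 0.142% and 0.170% of the total in *bbx11-1*, 0.170%, 0.142% and 0.154% in *pif4-2* and 0.106%, 0.0963% and 0.114% in Col-0. Both mutants were above Col-0 in every library, and *atpF* was the single locus past the adjusted p alone for its share in *bbx11-1* (log2 difference 0.55, SE 0.10, limma, adjusted p = 0.0415, against 0.292% of all tested genes). For *psbA* the share was 0.300%, 0.375% and 0.437% in *bbx11-1*, 0.434%, 0.378% and 0.354% in *pif4-2* and 0.293%, 0.272% and 0.268% in Col-0. Its share was above Col-0 in every mutant library, by a log2 difference of 0.48 in *pif4-2* that did not pass the test (limma, adjusted p = 0.0538).

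The loci with a lower share in *pif4-2* by the adjusted p alone were ATCG00790, ATCG00800, ATCG00830, ATCG00900 and ATCG01130, none of which has a name here. Loci without a name were not checked for copies elsewhere in the genome, so that reads of these loci could have been split or lost. Among them, ATCG00790 and ATCG00800 are among the 10 most abundant loci. ATCG00790 held 3.53%, 4.36% and 4.96% of the chloroplast total in *bbx11-1*, 3.71%, 3.15% and 3.32% in *pif4-2* and 5.32%, 4.78% and 4.67% in Col-0. The *pif4-2* libraries were below all Col-0 libraries (log2 difference -0.54, SE 0.12, limma, adjusted p = 0.0303). ATCG00900 had the largest such difference, of -0.87 (SE 0.11, limma, adjusted p = 9.47e-04), followed by ATCG01130 (-0.76, SE 0.10, limma, adjusted p = 0.00141), ATCG00830 (-0.64, SE 0.14, limma, adjusted p = 0.0228) and ATCG00800 (-0.50, SE 0.11, limma, adjusted p = 0.0285). The identifiers ATCG00780, ATCG00790, ATCG00800 and ATCG00830 are close to each other in number, and ATCG00780 had a log2 difference in share of -0.49 (limma, adjusted p = 0.051). In FPKM, the log2 differences of *pif4-2* from Col-0 for the 5 loci with a lower share were -0.37 to 0.04, none past the adjusted p.

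In *bbx11-1* against Col-0, 0 of the 115 loci changed in share past both thresholds (limma), where 0.0887% of all tested genes were higher and 0.0574% lower, and 41 had an unadjusted p below 0.05, against 10.7%. In 25 of the 115 every *bbx11-1* library had a higher share than every Col-0 library, against 6.81% of all tested genes, and in 4 a lower one, against 5.83%. Against *pif4-2*, 0 of the 115 loci differed in share past both thresholds in *bbx11-1* (limma), where 0.412% of all tested genes were higher and 0.230% lower, and 11 had an unadjusted p below 0.05, against 14.8%. The share of 4 loci was higher in every *bbx11-1* library than in every *pif4-2* library, against 13.5% of all tested genes, and that of 4 others was lower, against 9.74%. By the adjusted p alone 3 were higher in *bbx11-1* than in *pif4-2*, against 1.43% of all tested genes, and 0 lower, against 0.923%. These were ATCG00830 (log2 difference 0.93, limma, adjusted p = 0.00565), ATCG00900 (0.47, limma, adjusted p = 0.0476) and ATCG01130 (0.44, limma, adjusted p = 0.0468). ATCG00830 made up 0.150%, 0.157% and 0.196% of the chloroplast total in *bbx11-1*, 0.108%, 0.0824% and 0.0739% in *pif4-2* and 0.148%, 0.128% and 0.133% in Col-0, so that the *pif4-2* libraries were below all others.

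**Figure D5:**
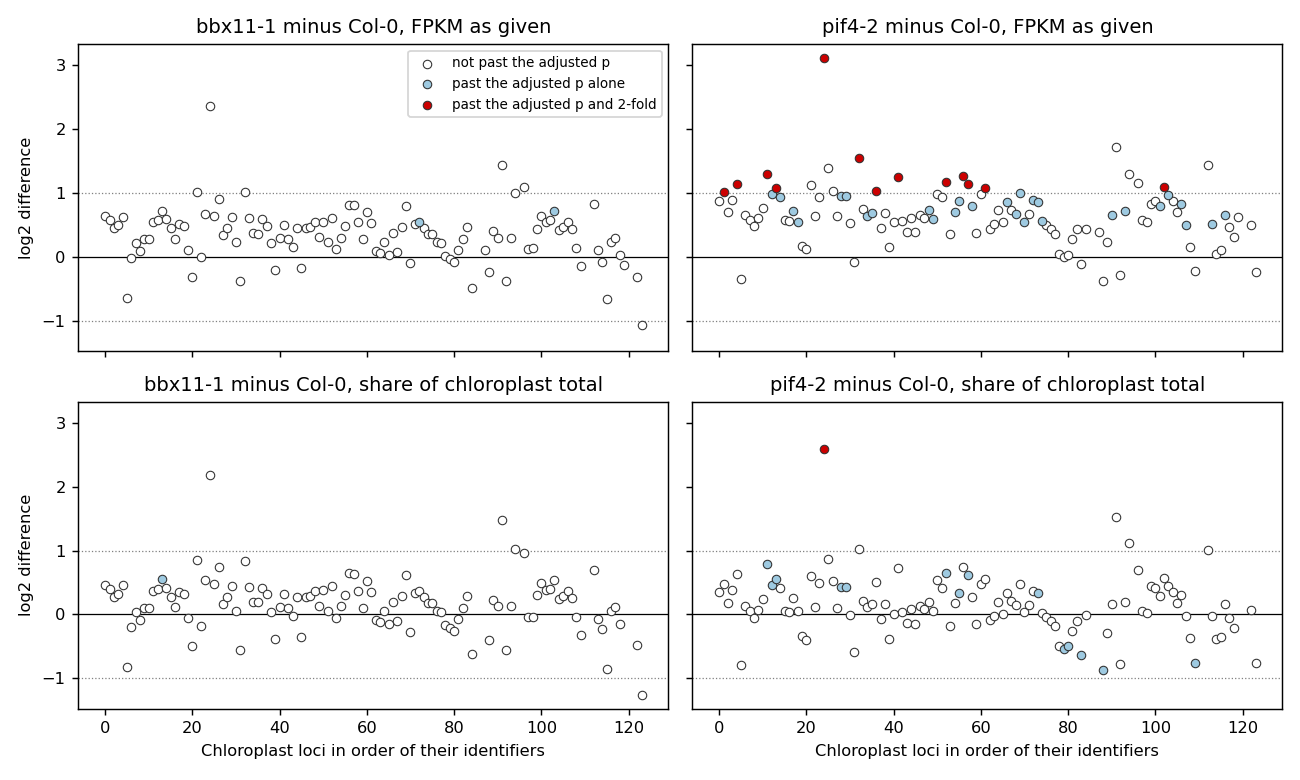
Log2 difference (y axes) from Col-0 of bbx11-1 (left) and pif4-2 (right) for each tested chloroplast locus, in order of identifier (x axes), with FPKM as given (top, 117 loci) and as a share of the chloroplast total (bottom, 115 loci); fill gives the test result and dotted lines mark 2-fold. With FPKM as given, 109 of the 117 loci lie above 0 in pif4-2 and 99 in bbx11-1, and on the share scale ATCG00240 alone is past both thresholds in pif4-2.

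The nuclear genes for the transcription and the stability of chloroplast RNA were examined from lists of the 6 sigma factors, the 2 phage-type RNA polymerases with a place in chloroplasts, 13 proteins associated with the chloroplast-encoded RNA polymerase and 10 proteins that stabilise or degrade RNA there. Of these 31 genes, 0 were past the adjusted p in any of the 3 comparisons, with or without the fold threshold (limma), where 0.783% of all tested genes rose and 0.350% fell past both thresholds in *pif4-2* against Col-0. By the adjusted p alone, 0.271% of all tested genes were higher and 0.172% lower in *bbx11-1* than in Col-0, 2.88% higher and 1.95% lower in *pif4-2* than in Col-0, and 1.42% higher and 0.902% lower in *bbx11-1* than in *pif4-2*. At these shares a count of 0 among 31 genes is near the background. The sigma factors, which direct the bacterial-type polymerase to its promoters, summed to 264 to 277 FPKM in *bbx11-1*, 255 to 273 FPKM in *pif4-2* and 248 to 286 FPKM in Col-0, and their log2 differences of *pif4-2* from Col-0 were -0.31 to 0.06. The phage-type polymerases *RPOTp* and *RPOTmp* summed to 15.5 to 16.9 FPKM in *bbx11-1*, 13.7 to 14.9 FPKM in *pif4-2* and 12.5 to 16.3 FPKM in Col-0. For the polymerase-associated proteins the log2 differences of *pif4-2* from Col-0 were -0.13 to 0.15, and for the RNA-stabilising and RNA-degrading proteins -0.15 to 0.22. The ranges of these sums overlapped among the genotypes.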

How the data were processed

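RNA-seq was performed by the authors on 9 libraries of whole seedlings. Per the study's methods and the labels, the reads were mapped to TAIR10 with Hisat2 and counted per gene with HTSeq, and edgeR (version 3.0.8 per the submitters' processing notes) was used for the authors' own lists. The deposited values are FPKM, 1 value per locus and library, and how FPKM was scaled, the strand setting and the handling of reads with several alignments are not given in the sources used here. Because FPKM are not counts, log2(FPKM + 0.5) of the loci that reached a mean of 1 FPKM in 1 genotype or more was fitted with limma (version 3.58.1, R 4.3.3; lmFit, eBayes with intensity trend), all 9 libraries in 1 fit, with Benjamini-Hochberg adjustment over all genes tested. P-values measure the spread between these libraries. For the share scale, the chloroplast loci of each library were first divided by their sum and multiplied by the mean sum over the libraries.

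The members and lists were chosen with earlier results of these data known. Loci named with the values of every library were the 10 with the highest mean, the 5 largest rises and falls past both thresholds in each comparison with Col-0, and representatives of each function; others were added after their values were seen. The representatives *rbcL*, *psbD*, *psaA*, *rpoB* and *ycf2* could not be matched to an identifier, so the total over protein-coding loci was taken over the 41 loci with a name or description. Names came from the study's lists and the TAIR10.1 annotation, and coding sequences from RefSeq (TAIR10.1).

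Whether replicate numbers pair the libraries was checked over 19169 genes, by correlating how far libraries of the same number lay from their genotype means. The correlation was 0.549, 0.287 and 0.275 for *bbx11-1* with Col-0, and -0.01 to 0.09 for the pairs with *pif4-2*. The fit as reported held genotype only, so its results for *bbx11-1* against Col-0 do not use this pairing. Blocking by replicate number entered only as an alternative fit. Summaries were made in Python 3.11.15 (pandas 2.3.3, matplotlib 3.10.9). Depth was estimated from the steps of the lowest values, and counting error was not modelled. Scaling by the mitochondrial total and leaving out replicate 1 of both Col-0 and *bbx11-1* were alternatives chosen after seeing the data.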

Additional observations from a re-analysis of the deposited data

How the results depend on the processing

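With values as given, 13 loci rose in *pif4-2* against Col-0. The number was 8 with no filter on low values, 8 without the intensity trend, 8 after quantile normalization, 41 by the adjusted p alone, 31 without replicate 1 of both Col-0 and *bbx11-1*, 1 after scaling by the mitochondrial total, and 4 to 24 when single libraries were left out. With the replicate block it was 14, and the block changed no count by more than 1.5 times other than those named here. For *bbx11-1* against Col-0 (0 loci) it was 1 with a mean of at least 5 FPKM, with the replicate block and after scaling by the mitochondrial total, 2 by the adjusted p alone, and 0 to 4 when single libraries were left out. For *bbx11-1* against *pif4-2* (0 loci) it was 1 by the adjusted p alone, 3 without replicate 1 of both Col-0 and *bbx11-1*, and 0 to 2 when single libraries were left out. With shares of the chloroplast total, *pif4-2* against Col-0 (1 locus) gave 15 by the adjusted p alone, 2 with only these genotypes in the fit, 2 without replicate 1 of both Col-0 and *bbx11-1*, and 1 to 2 when single libraries were left out. Shares in *bbx11-1* against Col-0 (0 loci) gave 1 with a mean of at least 5 FPKM, by the adjusted p alone, with the replicate block, without the most abundant locus in the total, and without replicate 1 of both Col-0 and *bbx11-1*, and 0 to 1 when single libraries were left out. Shares in *bbx11-1* against *pif4-2* (0 loci) gave 3 by the adjusted p alone, 1 without replicate 1 of both Col-0 and *bbx11-1*, and 0 to 1 when single libraries were left out. Most loci with a name or description came from the study's lists of genes that changed in these libraries. A ratio over them is therefore not independent evidence. The mean chloroplast total of *pif4-2* was 1.44 times that of Col-0, 1.65 times over those loci alone, and 1.33 to 1.61 times when single libraries were left out. That of *bbx11-1* was 1.15 times, with 0.959 to 1.29 when single libraries were left out, the lowest without its own replicate 1, which reversed the direction. Without replicate 1 of both Col-0 and *bbx11-1* it was 1.08 times. The cause of these changes was not tested, except that a lower threshold, fewer loci or fewer libraries enter some of them by construction. Among the alternatives for single loci, 3220 kept their side of the thresholds, of which 3116 kept their direction and 104, all short of the thresholds, changed sign. A further 27 passed the thresholds of their alternative, 68 no longer did, and 0 past them reversed. In the alternative by the adjusted p alone, passing did not require a 2-fold difference. The deposited FPKM carry no read numbers, so counting error of weak loci is unknown.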
